A study of Mus musculus with 15 samples.

Results

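Egr1, Egr3, Npas4 and Btg2 are 4 activity-regulated genes, and their transcripts were followed in mouse cortex 1 month after repeated head impacts. The members were every listed transcript whose gene name in the GENCODE M21 annotation is one of these 4 names. Each gene had a single listed transcript, so 4 of the 10370 listed transcripts, and 4 of the 7740 genes they were matched to, are described here.

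The cortex was dissected from male C57BL/6 mice, aged 12 weeks per the labels, and its total RNA was sequenced. HF-HI mice (high-frequency head impact, n = 8) were anesthetised and struck repeatedly on consecutive days. Sham mice (n = 7) had the same handling and anesthesia without impacts. Both groups were sampled 1 month (1m) later, and no transgene, drug or other time point belongs to these libraries. Whether each library came from a separate mouse is not stated in the labels, so p-values measure the spread between these 15 samples. The comparison asks how these genes stood long after the last impact.

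The listed Egr1 transcript (ENSMUST00000165033, 3 exons, 3036 bases when spliced) spans positions 34861207 to 34864956 on the plus strand of chromosome 18 in GRCm38 (mm10). The Egr3 transcript (ENSMUST00000035908, 3 exons, 1509 bases) lies on the plus strand of chromosome 14, from 70077203 to 70079955. The Npas4 transcript (ENSMUST00000056129, 8 exons, 3622 bases) lies on the minus strand of chromosome 19, from 4984355 to 4990316. The Btg2 transcript (ENSMUST00000020692, 2 exons, 2743 bases) lies on the minus strand of chromosome 1, from 134075170 to 134079120. All 4 are protein-coding. The annotation holds 2 transcripts of Egr1, 4 of Egr3, 3 of Npas4 and 1 of Btg2, and the transcripts that are not in the list were not analysed here.

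Immediate early genes need no new protein to be switched on, so firing neurons transcribe them almost at once, and their mRNAs are short-lived. Calcium entry through NMDA receptors and voltage-gated channels drives them through the ERK kinases, through CREB bound at TGACGTCA-type elements and through serum response factor. Egr1 and Egr3 are zinc-finger transcription factors that bind the same GC-rich element, and Egr1 also drives Arc, whose protein removes AMPA receptors from synapses. Npas4 is a bHLH-PAS factor that pairs with Arnt or Arnt2, responds to calcium entry in neurons, and regulates inhibitory synapses. Btg2 is an antiproliferative protein of the Btg/Tob family that recruits the CCR4-NOT deadenylase to mRNAs.

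Stretches next to 2 of the start sites are shown because they carry the element to which CREB binds, a route from calcium entry to these genes. The RefSeq promoter table (GRCm38.p6) held entries for Btg2 and Npas4 of the 4 members. Capitals mark TGACGTC read on either strand. The Btg2 stretch (chr1:134079262-134079361, minus strand) lies 206 to 107 bases upstream of the RefSeq start. The Npas4 stretch (chr19:4990130-4990156, minus strand) lies 185 to 159 bases upstream of a RefSeq start and inside the first exon of the listed transcript.
Btg2: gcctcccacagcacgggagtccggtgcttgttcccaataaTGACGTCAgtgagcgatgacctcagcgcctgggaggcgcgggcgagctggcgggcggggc
Npas4: gttcGACGTCAcgggaTGACGTCggaa

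The motif TGACGTC, searched on both strands, was in both genes' windows of 250 bases before to 50 after the start, and in 3.21% of 32851 such windows of 27025 genes. Its palindromic form TGACGTCA, which overlaps it, was in the Btg2 window only, and in 1.79% of all windows. GCGNGGGCG, the element that Egr proteins bind, was in the Btg2 window, where a match stands in the lower-case run above, and in 5.55% of all windows. The AP-1 element TGANTCA (7.81% of windows) and the CArG box bound by serum response factor (1.63%) were in neither window. A match describes letters in these windows only.

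The libraries summed to between 3496103 and 10582858 reads over the listed transcripts. Size factors, the scaling for depth, were 0.818 to 1.47 in Sham and 0.501 to 1.22 in HF-HI. Excitatory neuron markers were present, with 12 of 14 marker genes listed and Neurod1 and Emx1 missing from the list. Striatal markers were present too, with 17 of 19 genes listed and a summed level of 16227 to 23016 normalized counts in Sham and 12554 to 22437 in HF-HI. Ttr, the transthyretin gene of the choroid plexus, was above 1000 normalized counts in 4 libraries (Sham 1, Sham 2, HF-HI 2 and HF-HI 5, at 6589, 6685, 8663 and 8165). In the other 11 libraries Ttr was between 21.0 and 176. Of the choroid plexus markers, 2 of 10 genes were listed, with a summed level of 1972 to 11212 in Sham and 2018 to 13832 in HF-HI. Results are therefore given with and without these 4 libraries where that touches a value. This split was chosen after the data were seen.

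Levels were compared per length. Egr1 stood at 406 ± 101 normalized counts per kb of transcript (mean ± SD, n = 15), Egr3 at 135 ± 29.2, Btg2 at 75.0 ± 21.1 and Npas4 at 48.1 ± 17.2. Egr1 was above Egr3 in 15 of 15 libraries (exact two-sided sign-flip test, p = 6.1e-05, the smallest it can give). Egr3 was above Btg2 in 14 of 15 (exact p = 3.05e-04), and Btg2 was above Npas4 in 14 of 15 (exact p = 1.22e-04). The ranges of mean ± SD of Btg2 and Npas4 overlapped. Before division by length, the means over the 15 libraries were 1234 normalized counts for Egr1, 203.6 for Egr3, 205.6 for Btg2 and 174.4 for Npas4. The order of Egr3 and Btg2 therefore came from their annotated lengths (1509 and 2743 bases). Its paired test reflects that divisor and shows no difference in counts. The lengths also enter the other paired tests. Reads behind a single value ranged from 59 for Egr3 in HF-HI 2 to 1946 for Egr1 in Sham 4.

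Egr1 was higher after HF-HI, and none of the other 3 members had a group difference that passed an unadjusted p of 0.05. Over all listed transcripts, 8.83% passed that p in either direction, 4.94% with a higher level in HF-HI and 3.9% with a lower one. Of the 4 members, 1 passed. No transcript in the whole table passed the study's adjusted threshold of 0.1 (limma with Benjamini-Hochberg adjustment), and 916 passed the unadjusted p, so every call below is an unadjusted one. The study applied that threshold to DESeq2 Wald tests on raw counts and reported altered genes at 1 month. The limma fits to the deposited values do not repeat its test.

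Egr1 in Sham ran from 527 normalized counts in Sham 2 through a median of 997 to 1321 in Sham 4. In HF-HI it ran from 1056 in HF-HI 2 through a median of 1461 to 1681 in HF-HI 6. The groups overlapped through HF-HI 2 alone, since 7 of the 8 HF-HI libraries lay above the highest Sham library. All 8 HF-HI libraries were above the Sham median, a pattern shared by 3.8% of all transcripts.

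The Sham mean of Egr1 was 1004 ± 263 normalized counts and its HF-HI mean was 1435 ± 173, a ratio of 1.43. On the log2(normalized counts + 1) scale the difference was 0.56 (SE 0.16, 95% interval 0.22 to 0.90). On the deposited variance-stabilized (VSD) scale, which compresses differences at low counts, it was 0.27 (limma p = 0.00180, adjusted p = 0.319; exact permutation p = 0.00280 over all 6435 groupings of 7 and 8 libraries).

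In the 11 libraries with low Ttr, the 5 Sham values of Egr1 lay between 907 and 1321 and the 6 HF-HI values between 1420 and 1681. The groups did not overlap there, as for 0.743% of all transcripts. HF-HI 2, through which alone they overlapped over all 15 libraries, is among those left out, so this followed from its removal. The means were 1101 ± 186 and 1494 ± 94.2 (exact permutation p = 0.00216 over 462 groupings, the smallest it can give, limma adjusted p = 0.463). Over all 15 libraries, 16 transcripts, or 0.154%, had groups that did not overlap, and no member was among them.

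Among the covariates tried, the circadian score moved the Egr1 difference most. Of 22 circadian transcripts, 7 were higher and 1 was lower in HF-HI, against 4.94% and 3.9% of all transcripts. Per1, a clock gene that is also an immediate early gene, was in both lists. With the circadian score as a covariate, the Egr1 difference in VSD was 0.16 (limma adjusted p = 0.508), against 0.27 without it. Excitatory neuron markers summed to 19878 to 21725 normalized counts in Sham and 20619 to 23004 in HF-HI, with 3 of 16 transcripts higher (1 without HF-HI 2, and 2 without several other libraries), and that score as a covariate left 0.23 (limma adjusted p = 0.445). Mitochondrially encoded transcripts were lower in 7 of 15 cases, but in 2 of 15 without Sham 1, Sham 4, Sham 6, Sham 7, HF-HI 4, HF-HI 6 or HF-HI 7, in 3 without Sham 2, in 4 without Sham 5, and in 0 with the size factor as a covariate. The Egr1 difference with their score as a covariate was 0.32 (limma adjusted p = 0.410). Of 27 striatal marker transcripts 3 were lower (2 to 7 with a library left out, 7 without Sham 5 or without HF-HI 6), and with their score as a covariate the difference was 0.26 (limma adjusted p = 0.445). The Egr1 difference passed the unadjusted p in all 4 of these fits. Their part in the Egr1 difference was not tested. In bulk tissue, more Egr1 RNA per cell and more cells that express it cannot be told apart.

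**Figure D1:**
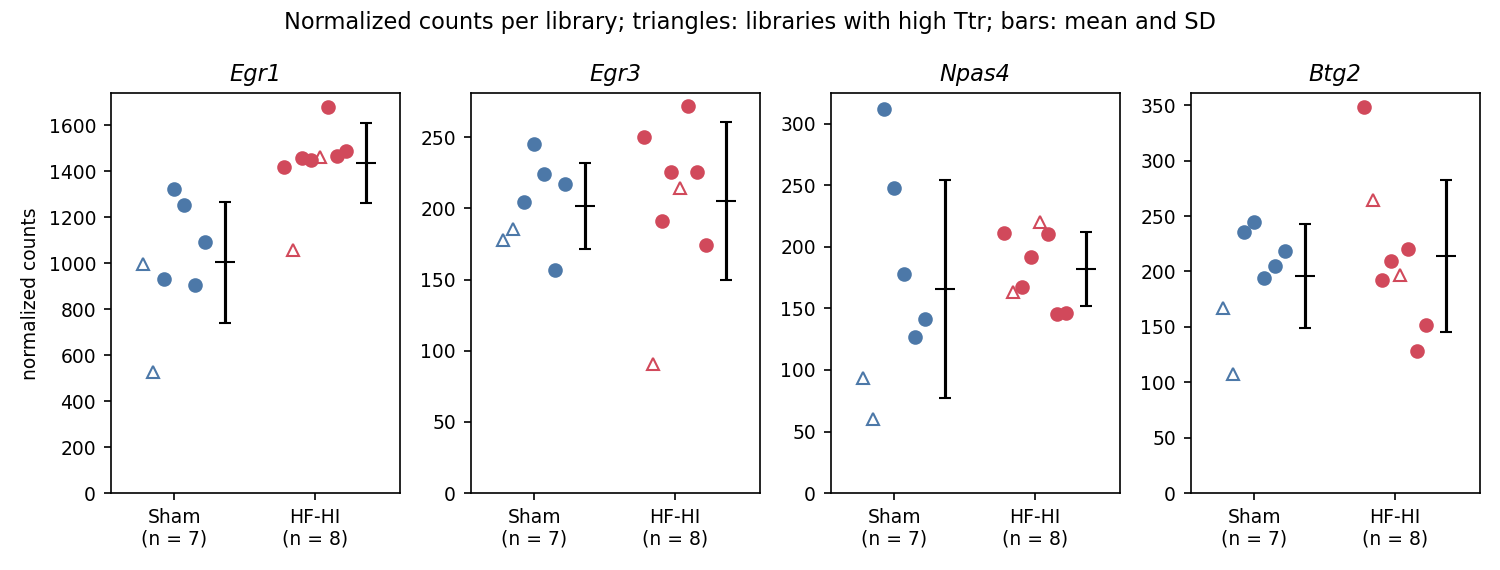
Normalized counts (vertical axis, from 0) of Egr1, Egr3, Npas4 and Btg2 in each Sham (n = 7) and HF-HI (n = 8) library, with the mean and SD beside the points; open triangles are the 4 libraries with high Ttr. For Egr1, 7 of 8 HF-HI libraries lie above all Sham libraries, whereas the groups of the other members overlap more fully, and Npas4 is most spread in Sham.

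Egr3 did not follow Egr1 between the groups. Its level in Sham ran from 157 normalized counts in Sham 6 through a median of 204 to 245 in Sham 4. In HF-HI it ran from 90.8 in HF-HI 2 through a median of 220 to 272 in HF-HI 6. The HF-HI range enclosed the Sham range, with 2 libraries above the highest Sham library and 1 below the lowest. The means were 201.6 ± 30.3 in Sham and 205.5 ± 55.6 in HF-HI (limma p = 0.978, adjusted p = 0.996; exact permutation p = 0.983). The log2 difference of -0.02 had a 95% interval of -0.43 to 0.39, so a change in Egr3 as large as the central estimate for Egr1 (0.56) lay outside it. Its sign turned with the scale: the difference was 0.00 in VSD and negative in log2 counts. In the low-Ttr libraries the means were 209.5 ± 33.0 and 223.1 ± 36.1 (exact permutation p = 0.537).

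Npas4 was spread widely in Sham and narrowly in HF-HI. In Sham it ran from 59.9 normalized counts in Sham 2 and 93.2 in Sham 1, through a median of 142, to 248 in Sham 4 and 312 in Sham 3. In HF-HI it ran from 145 in HF-HI 7 through a median of 180 to 220 in HF-HI 5. The whole HF-HI range therefore fell inside the Sham range, above the Sham median and below the 2 highest Sham libraries.

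The highest Npas4 value was 5.20 times the lowest in Sham and 1.51 times the lowest in HF-HI. The coefficient of variation (SD as a percent of the mean) was 53.3% in Sham and 16.6% in HF-HI, where counting alone would give 8.03% and 8.43%. Among 2693 transcripts with a mean of 150 to 250 normalized counts, the median coefficient of variation was 14.3% in Sham and 16.8% in HF-HI, and Npas4 ranked above 96.4% of them in Sham and above 49.1% in HF-HI. The difference in spread was not tested. The 2 lowest Sham libraries were both of high Ttr, and over the low-Ttr libraries Npas4 still spanned 127 to 312 in Sham, against 145 to 211 in HF-HI.

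The Npas4 means were 165.7 ± 88.3 in Sham and 182.0 ± 30.2 in HF-HI (limma p = 0.419, adjusted p = 0.848; exact permutation p = 0.455). The log2 difference was 0.30 with a 95% interval of -0.30 to 0.90, which holds both no difference and one as large as that of Egr1. Without the 4 high-Ttr libraries the direction turned, with 201.3 ± 77.5 in Sham and 178.8 ± 29.99 in HF-HI (exact permutation p = 0.608).

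Btg2 overlapped between the groups. Its coefficient of variation was higher in HF-HI than in Sham (32.0% and 23.9%), but 23.0% in HF-HI without HF-HI 1. In Sham it ran from 108 normalized counts in Sham 2 through a median of 205 to 244 in Sham 4. In HF-HI it ran from 128 in HF-HI 7 through a median of 203 to 349 in HF-HI 1. Only HF-HI 1 and HF-HI 2 (265) lay above every Sham library, and 4 of the 8 HF-HI libraries were above the Sham median. The means were 196.1 ± 46.8 and 214.0 ± 68.4 (limma p = 0.582, adjusted p = 0.906; exact permutation p = 0.612), and the log2 difference of 0.11 had a 95% interval of -0.33 to 0.55. In the low-Ttr libraries the means were 219.6 ± 21.0 in Sham and 208.3 ± 77.1 in HF-HI, so its direction turned as well (exact permutation p = 0.671).

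The spread of the other members was ranked in the same way. Egr1 varied by 26.2% in Sham and 12.1% in HF-HI, above 97.0% and 78.1% of 662 transcripts with a mean of 1000 to 1500 normalized counts. Btg2 varied by 23.9% in Sham and 32.0% in HF-HI, above 75.2% and 81.0% of the 2693 transcripts of its level. Egr3 varied by 15.02% and 27.0%, above 52.6% and 74.2%. Several of these values rested on 1 library. Without Sham 2 the Sham variation of Egr1 was 15.9% and that of Btg2 13.6%, and without HF-HI 2 the HF-HI variation of Egr1 was 5.83% and that of Egr3 14.9%. Without HF-HI 1 the HF-HI variation of Btg2 was 23.0%. Npas4 varied by 44.8% to 59.0% in Sham with any single library left out, and by 15.2% to 17.9% in HF-HI. Sham 2 was the lowest library for Egr1, Npas4 and Btg2 but not for Egr3.

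**Figure D2:**
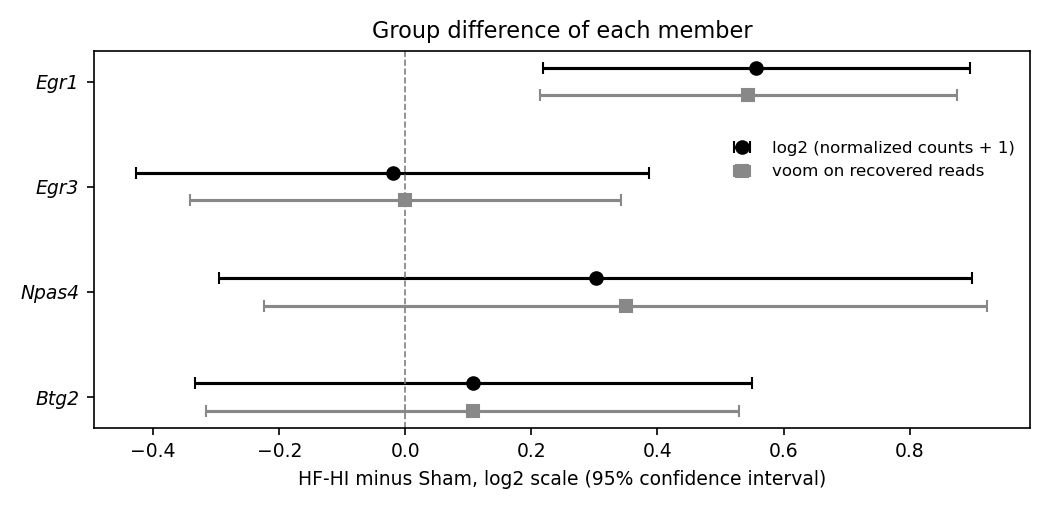
HF-HI minus Sham difference of each member on a log2 scale (horizontal axis), with 95% confidence intervals, from limma on log2(normalized counts + 1) (black circles) and from voom on the recovered reads (grey squares). The interval of Egr1 lies above 0 in both fits (0.22 to 0.90 in the first), and the intervals of Egr3, Npas4 and Btg2 span 0.

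The contrast between Egr1 and Egr3 was tested directly, as the log2 ratio of the members within each library, over the 6 pairs. The log2 ratio of Egr1 to Egr3 averaged 2.27 ± 0.36 over Sham and 2.85 ± 0.33 over HF-HI libraries, a difference of 0.58 (exact permutation p = 4.66e-04, adjusted over the 6 pairs p = 0.00280). It was higher than the Sham median in 8 of 8 HF-HI libraries and higher than the highest Sham library in 7. The ratio of Egr1 to Btg2 differed by 0.45 (exact permutation p = 0.0656, adjusted p = 0.197), and that of Egr1 to Npas4 by 0.25 (exact permutation p = 0.317, adjusted p = 0.453). The remaining 3 pairs, all without Egr1, differed by -0.32 to 0.19 with adjusted permutation p of 0.453 to 0.717. The group difference of Egr1 was thus set apart from that of Egr3, and not from those of Btg2 and Npas4 on this scale over all 15 libraries. On the VSD scale, Egr1 minus Npas4 was 0.22 (exact permutation p = 0.00326) and Egr1 minus Btg2 was 0.24 (exact permutation p = 0.0110), both unadjusted. The VSD compresses the lower counts of Npas4 and Btg2 more than those of Egr1. Equal fold changes would therefore differ on it, and these p-values do not compare fold changes.

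Across the 15 libraries, with the group means removed, 2 of the 6 pairs of members passed after adjustment of Pearson's r. Npas4 and Btg2 correlated at r = 0.64 (permutation p = 0.00151, adjusted over the 6 pairs 0.00906; Spearman rho = 0.64, permutation p = 0.0125, adjusted 0.0532). Sham 2 was low and Sham 3 and Sham 4 were high for both. Without Sham 3 and Sham 2, the libraries farthest from the median of Npas4, r was 0.53 (permutation p = 0.0160). It was 0.86 in Sham alone (exact permutation p = 0.00893) and 0.60 in HF-HI alone (exact permutation p = 0.116), and over the low-Ttr libraries it was 0.51 (permutation p = 0.00438). Of all transcripts, 0.54% had a higher r with Npas4 than Btg2 did, and 0.453% had a higher r with Btg2 than Npas4 did. Negative correlations, however strong, are not in these shares.

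Egr1 and Egr3 correlated at r = 0.62 (permutation p = 0.00493, adjusted 0.0148; Spearman rho = 0.58, permutation p = 0.0177, adjusted 0.0532). Without Sham 2 and HF-HI 2, the farthest from the median of Egr1, r was 0.67 (permutation p = 0.0152). HF-HI 2, low in both, decided the threshold, since without it alone r was 0.50 (permutation p = 0.0648), and without Sham 2 alone it was 0.83. Within groups r was 0.63 in Sham (exact permutation p = 0.120) and 0.89 in HF-HI (exact permutation p = 0.0215), but the rank correlation in HF-HI was 0.33 (exact permutation p = 0.428). In the low-Ttr libraries r was 0.65 (permutation p = 0.0206).

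The other 4 pairs did not pass after adjustment over the 6 pairs, and no test compared the correlations with each other. Egr1 and Npas4 had r = 0.55 (permutation p = 0.101, adjusted 0.151; rho = 0.34, permutation p = 0.281), which was 0.22 without Sham 2 and 0.77 without Sham 3. Egr3 and Npas4 had r = 0.38 (permutation p = 0.0469, adjusted 0.0939; rho = 0.54, permutation p = 0.0323), and r = 0.53 without HF-HI 2 and Sham 6 (permutation p = 0.0370). Egr1 and Btg2 had r = 0.28 (permutation p = 0.285; rho = -0.01, permutation p = 0.985), with 0.80 in Sham and -0.33 in HF-HI, and r = -0.17 without Sham 2. Egr3 and Btg2 had r = 0.09 (permutation p = 0.777; rho = 0.21, permutation p = 0.459), and r = 0.60 without HF-HI 2 and Sham 6 (permutation p = 0.0414), since Btg2 was high in HF-HI 2 where Egr3 was lowest. Whether any correlation differed between Sham and HF-HI was not tested.

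**Figure D3:**
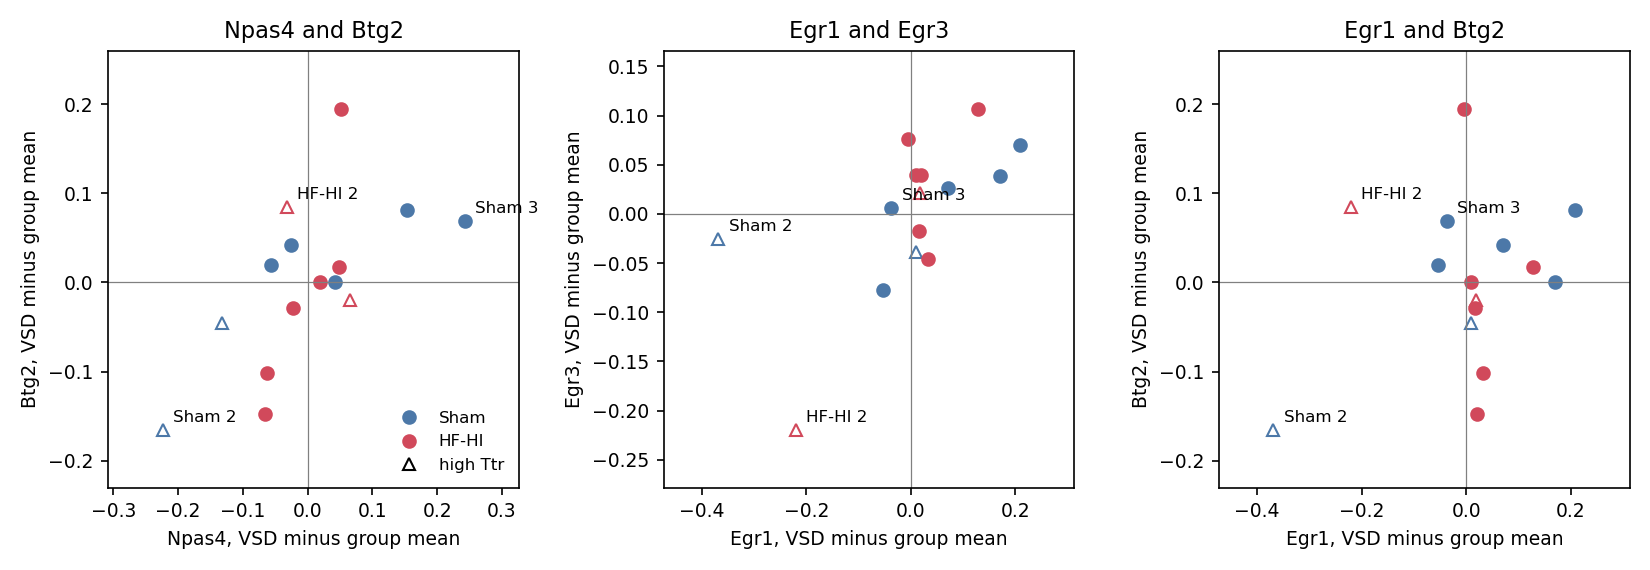
Deviation of each library from its group mean, in VSD (both axes), for Npas4 and Btg2, Egr1 and Egr3, and Egr1 and Btg2; blue is Sham, red is HF-HI, and open triangles are libraries with high Ttr. Npas4 and Btg2 vary together (r = 0.64), Egr1 and Egr3 do so with Sham 2 and HF-HI 2 at the low end (r = 0.62), and Egr1 and Btg2 scatter (r = 0.28).

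Transcripts most like the 4 members were ranked by their mean Pearson r with them over the 15 libraries, group means removed. The 10 highest were Med14 (0.66), Fos (0.65), 9330159F19Rik (0.62), Sgsm1 (0.62), Epn2 (0.61), Nr4a1 (0.60), Tnr (0.60), Fam171a1 (0.58), Sik1 (0.58) and Fam53b (0.58). Fos, Nr4a1 and Sik1 are immediate early genes themselves, encoding an AP-1 subunit, an orphan nuclear receptor and a CREB-coactivator kinase. The 5 lowest were Dcaf12l1 (-0.64), Vps11 (-0.60), Cbr1 (-0.59), Akap11 (-0.58) and Fam169a (-0.58). The 10366 other transcripts had a median mean r of 0.00, with 51 of them (0.492%) above 0.5.

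The other immediate early gene transcripts, 28 in all, had a median mean r of 0.40, and 24 of the 28 were positive. Of these, 10 (35.7%) were above 0.5. Fos followed Btg2 (r = 0.77) and Egr1 (0.73) more than Npas4 (0.67) and Egr3 (0.44). Arc and Homer1 encode proteins of the postsynaptic side. The 2 Arc transcripts had mean r of 0.56 and 0.52, and the 4 Homer1 transcripts 0.56, 0.53, 0.26 and 0.12. Klf6 (-0.23), Jund (-0.12) and Jun (-0.02) stood at the other end. The values of a library share its depth, which differed between libraries, and its dissection. Whether the dissection differed is not stated in the sources used here. These correlations carry no test, and the part of depth or dissection in them was not tested.

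**Figure D4:**
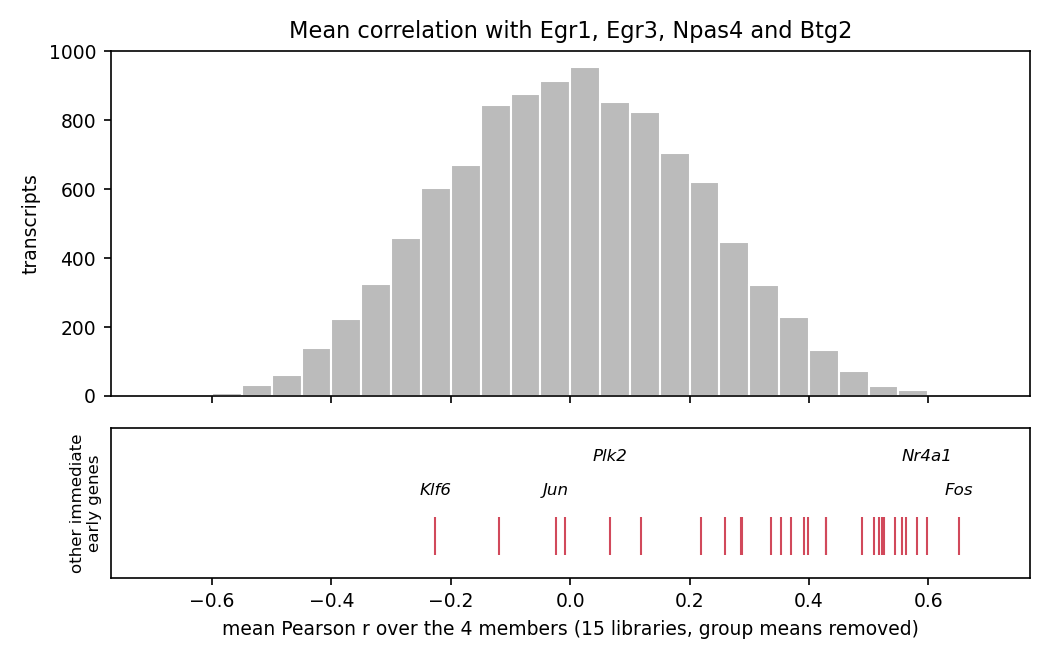
Mean Pearson r with Egr1, Egr3, Npas4 and Btg2 (horizontal axis; 15 libraries, group means removed) of all other transcripts (histogram, number of transcripts on the vertical axis) and of the 28 other immediate early gene transcripts (red ticks). The histogram centres on 0.00, whereas the ticks centre on 0.40, with Fos at 0.65 and Klf6 at -0.23.

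Among immediate early genes as a whole, 27 of 44 genes in the list were measured by 32 transcripts, and 19 of these were called higher and 0 lower in the HF-HI libraries by limma's unadjusted p of 0.05. The exact permutation p beside a transcript below is on the VSD scale and unadjusted, and calls rest on limma. With the circadian score as a covariate, 12 of the 32 were higher and 0 lower. Over all transcripts, 4.94% were called higher and 3.9% lower without that covariate. The median VSD difference of the 32, also without it, was 0.10, against 0.00 over all transcripts. Egr1 was among the 19, and Egr3, Npas4 and Btg2 were among the 13 that did not pass. Fos went from 235.5 ± 87.1 to 401.6 ± 85.8 normalized counts (exact permutation p = 7.77e-04, limma adjusted p = 0.338), and Nr4a1 from 561.5 ± 199.1 to 819.5 ± 140.8 (exact permutation p = 0.0106, limma adjusted p = 0.408). Jun (223.0 to 226.8, exact permutation p = 0.873) and Nr4a2 (167.7 to 149.6, exact permutation p = 0.580) did not pass. This list was drawn up with earlier results of these data known, and its count is a description.

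In the Egr family and its Nab corepressors, 3 of 6 genes were listed, and Egr1 was the only one to pass in the fit to the VSD of all libraries. Over all transcripts, 8.83% passed the unadjusted p in limma. Nab1, which binds Egr1 and Egr3 and dampens their activity, went from 328.2 ± 35.7 to 358.7 ± 16.2 normalized counts (exact permutation p = 0.0474, limma adjusted p = 0.569). It was not called in that limma fit. Limma did call Nab1 on log2 counts with pseudocounts of 1 and 10. On the VSD it was called without Sham 1, Sham 4, Sham 7 or HF-HI 5. Of the Npas4 partners and relatives, 5 of 8 genes were listed, with 0 higher and 1 lower. A lower call was made in 4 of 15 fits with a library left out, and in 0 with the replicate block, without the trend, or with the striatal or endothelial score. Npas2, a relative of Clock, was at 291.9 ± 16.1 in Sham and 262.4 ± 31.1 in HF-HI (exact permutation p = 0.0435, limma adjusted p = 0.561). Of the dimer partners, Arnt2 was at 2140 and 2256 (exact permutation p = 0.0908) and Arnt at 174.9 and 166.0 (exact permutation p = 0.411). Of the Btg/Tob family and CCR4-NOT, 15 of 19 genes were listed by 17 transcripts, and none passed limma's unadjusted p. Tob2, a Btg2 relative, went from 213.2 ± 21.6 to 246.7 ± 38.1 (exact permutation p = 0.0594, limma adjusted p = 0.577), while Btg1 was at 224.5 ± 12.4 and 211.5 ± 12.0 (exact permutation p = 0.0570).

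Upstream of the members, 3 transcription factor lists were read against the 8.83% of all transcripts that passed. Serum response factor and its ternary complex partners had 0 of 5 transcripts past the unadjusted p in limma, with Srf at 337.4 and 362.1 normalized counts (exact permutation p = 0.2497). CREB and its coactivators had 1 higher and 1 lower of 11, both of them Creb1 transcripts. ENSMUST00000049932 of Creb1 went from 260.6 to 394.6 (exact permutation p = 0.0660) and ENSMUST00000087366 from 447.9 to 287.4 (exact permutation p = 0.0155), with adjusted p of 0.561 and 0.514. These isoforms share most of their sequence, so how estimated reads were divided between them is uncertain. MEF2 factors had 1 of 6 lower, Mef2a, at 1453 and 1324 (exact permutation p = 0.0558, limma adjusted p = 0.565). With the size factor as a covariate, 0 of these CREB and MEF2 transcripts passed limma's unadjusted p.

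Of the ERK pathway, 4 of 19 transcripts were higher and 1 was lower, against 4.94% and 3.9% of all transcripts. Mknk2, a kinase that ERK activates, went from 176.4 ± 14.9 to 202.9 ± 19.5 normalized counts (exact permutation p = 0.0124, limma adjusted p = 0.470). Of the calcium signalling genes, 3 of 32 transcripts were higher and 4 were lower, against the same 4.94% and 3.9%. Camk2a, a kinase of the postsynaptic density, went from 7779 ± 392 to 8585 ± 417 (exact permutation p = 0.00326, limma adjusted p = 0.311). Camk2b had 1 transcript higher and another lower, and how reads were divided between them is uncertain. With the size factor as a covariate, 3 of 19 ERK transcripts and 1 of 32 calcium signalling transcripts passed, against 5.14% of all transcripts.

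Downstream, 3 of 17 transcripts of genes that Egr or Npas4 proteins are known to activate were higher and 0 were lower. Over all transcripts, 4.94% were higher and 3.9% lower. They were both Arc transcripts and Plk2. ENSMUST00000110009 of Arc went from 603.3 ± 199.7 to 1132 ± 224.5 normalized counts (exact permutation p = 6.22e-04, limma adjusted p = 0.214) and ENSMUST00000023268 from 1292 ± 509.9 to 2067 ± 357.7 (exact permutation p = 0.00280, limma adjusted p = 0.351). Plk2, a kinase that weakens overactive synapses, went from 1383 ± 119.7 to 1518 ± 65.4 (exact permutation p = 0.0172, limma adjusted p = 0.448). Nptx2, an Npas4 target that clusters AMPA receptors on interneurons, was at 334.2 ± 36.3 and 323.8 ± 47.6 (exact permutation p = 0.616). Arc and Plk2 are immediate early genes as well, so they count in both lists.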

How the data were processed

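Per the study's methods, the authors aligned stranded, ribosome-depleted total RNA reads to mm10 with STAR, estimated counts per transcript with eXpress, and scaled and variance-stabilized them with DESeq2. The annotation release is not given in the sources used here. The deposited unit is this log2-scale VSD, for 10370 transcripts in 15 libraries, 7 Sham and 8 HF-HI. Here the transformation was inverted: VSD is 9.81 at 0 counts, and 100% of values gave whole reads (tolerance 0.1). The lowest mean was 107.9 normalized counts, so rarer transcripts were not analysed. Of the transcripts, 10241 matched GENCODE M21 (GRCm38).

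Group differences were fitted with limma 3.58.1 (R 4.3.3; eBayes with trend, two-sided) on the VSD over all transcripts, with Benjamini-Hochberg adjustment at 0.1, and an unadjusted p of 0.05 counted as a call. The script was tested on simulated data. Single values used exact two-sided permutation over 6435 groupings, and correlations over 15 or 11 libraries used 100000 permutations (within a group, all). Correlations used the VSD, and within-library ratios log2(normalized counts + 1). Named genes were the members, the 10 most and 5 least like them, and called transcripts of the pathway lists; other genes named from these lists were chosen after their values were seen. Members and lists were chosen with earlier results of these data known. Alternatives were another scaling, filter or pseudocount, voom, covariates, and each library left out. The Ttr split and the Ttr, mitochondrial, circadian and excitatory covariates were added after the data were seen. Intervals cover the spread between libraries. Some transcripts of the pathway lists are counted but not reported here by name.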

Additional observations from a re-analysis of the deposited data

Results flagged for a closer look

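HF-HI 2 stood apart from the other HF-HI libraries for both Egr genes on the VSD scale. Its Egr1 level, 1056 normalized counts, was the lowest of the 8. In VSD, the gap to the next library was a larger share of the range than Dixon's 95% critical value allows. Its Egr3 level of 90.8 normalized counts, from 59 reads, was also the lowest. The same test in VSD gave a gap of 0.531 of the range, only just above the critical value. The test was not run on normalized counts, where the next Egr3 value was 174 (HF-HI 8) and the highest 272 (HF-HI 6). The Egr3 mark therefore holds for the VSD scale only. Btg2 in the same library was 265, second highest of HF-HI, and Npas4 was 163. HF-HI 2 also had the highest Ttr level, 8663 normalized counts. Of 8 combinations of gene and group, 2 were marked in VSD, where chance marks about 1 in 20. Both marks fell on HF-HI 2, in genes that correlated (r = 0.62), so they are not independent.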

How the results depend on the processing

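The Egr1 difference kept its direction and an unadjusted p under 0.05 in 20 of 20 alternatives (0.16 to 0.33 on the VSD scale, up to 0.56 on log2 scales) and with each library left out (0.21 to 0.30). Egr3 had no stable sign: its difference was -0.000221 after centring on the median, -0.00602 with the striatal score, -0.00205 with the Ttr level, -0.039 with the circadian and -0.039 with the excitatory score, -0.0203 and -0.0164 on log2 scales with pseudocounts of 1 and 10, and -0.00835 in voom per gene. In the low-Ttr libraries Npas4 turned to -0.0301 and Btg2 to -0.027. With a library left out, Egr3 ran from -0.014 to 0.033, Npas4 from 0.0094 to 0.087, and Btg2 from -0.0014 (without HF-HI 1) to 0.047. None of these reached a p of 0.05. Over all transcripts, calls fell to 533 with the size factor as a covariate and to 516 when transcripts below the median were dropped, which tests fewer transcripts, and ran from 748 (without Sham 2) to 987 with a library left out. A filter at the lower quartile leaves no value for Npas4, and one at the median leaves Egr1 alone.

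Correlations moved more. Without removing group means, Egr1 and Egr3 had 0.45 (permutation p = 0.0945), Egr1 and Npas4 0.53 (permutation p = 0.0431) and Egr3 and Npas4 0.38 (permutation p = 0.166). In Sham alone, Egr1 and Egr3 had 0.63, Egr1 and Btg2 0.80, and Egr3 and Npas4 0.58. In HF-HI alone, Egr1 and Btg2 had -0.33, Egr3 and Npas4 0.51, Egr3 and Btg2 -0.038, and Npas4 and Btg2 0.60. With the size factor regressed out, Egr1 and Npas4 had 0.62 (permutation p = 0.0455). Egr3 and Npas4 had 0.34 on the log2 scale, 0.38 after centring on the median and 0.53 in low-Ttr libraries, each above a p of 0.05. Egr1 and Btg2 had -0.0071 by ranks and -0.028 in low-Ttr libraries. Egr3 and Btg2 had 0.60 without HF-HI 2 and Sham 6. With a library left out, r ran from 0.50 to 0.83 for Egr1 and Egr3, 0.22 to 0.77 for Egr1 and Npas4, -0.17 to 0.46 for Egr1 and Btg2, 0.32 to 0.53 for Egr3 and Npas4, -0.10 to 0.50 for Egr3 and Btg2, and 0.49 to 0.71 for Npas4 and Btg2.

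Of the ratios, Egr1 to Npas4 was 0.22 (exact permutation p = 0.00326) in deposited values and 0.56 (permutation p = 0.0260) in low-Ttr libraries, and Egr1 to Btg2 was 0.24 (exact permutation p = 0.0110) in deposited values. The deposited scale compresses Npas4 and Btg2 more than Egr1, so values on it do not compare fold changes. In low-Ttr libraries Egr3 to Npas4 was 0.19 and Egr3 to Btg2 was 0.23. With a library left out, Egr1 to Egr3 ran from 0.45 to 0.63 (highest permutation p = 0.00300), Egr1 to Npas4 from 0.063 to 0.37, Egr1 to Btg2 from 0.35 to 0.56, Egr3 to Npas4 from -0.50 to -0.13, Egr3 to Btg2 from -0.25 to 0.082, and Npas4 to Btg2 from 0.12 to 0.32. ERK transcripts past the unadjusted p were 3 with the size factor as a covariate, 2 in voom per gene and 1 in low-Ttr libraries, and calcium signalling transcripts 1 and 4 in the first 2 of these. With a library left out, calls ran from 18 to 21 for immediate early genes, 3 to 4 for targets, 4 to 6 for ERK and 4 to 7 for calcium signalling. The cause of these moves was not tested.

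The values showed no sign that replicate numbers pair the samples, which does not exclude a pairing. Deviations of same-numbered samples correlated at -0.14 to 0.09, 0 of 7 above 0.1, and 1 of 7 libraries correlated best with its own number. A replicate block gave 890 calls in place of 916 and an Egr1 difference of 0.26 (limma adjusted p = 0.396). The 4 members rest on 59 to 1946 reads a library, which limits Egr3, Npas4 and Btg2 most.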
